A study of Homo sapiens with 46 samples.

Results

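The Lamin B2 degron line was compared with its untagged parent before any auxin was given, with 4 libraries of each, 8 of the 46 in the series. The cells are DLD-1, an established human colorectal adenocarcinoma line. The untagged parent carries no degron, and in the degron line (called LB2 here) the endogenous Lamin B2 protein carries an auxin-inducible degron at its N-terminal end. All 8 libraries are labelled 0 h of auxin, so a difference between the 2 groups is not a response to auxin. It is read here as a difference between the lines, from which any difference in library preparation between the 2 groups cannot be told apart. The series also holds lines with the same degron on Lamin A/C (LAC, 4 libraries at 0 h) and on Lamin B1 (LB1, 3 libraries at 0 h), and all lines after 16 and 96 h in 1 mM auxin. Each replicate came from its own culture well. The p-values measure the spread between wells of the same line and time, estimated over all 46 libraries, and not a spread between separately derived lines. The sources used here do not say whether LB2 was grown from 1 cell or what the 0 h wells received in place of auxin, and the tag and any other difference that the derived line carries cannot be told apart in this design.

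B-type lamins are filament proteins that lie under the inner nuclear membrane and stay anchored there through a lipid group, and the LMNB2 gene encodes one of them. A degron is a short protein tag that a ubiquitin ligase recognises once the plant hormone auxin is added, after which the tagged protein is degraded. Such lines are made by inserting the tag into the gene itself and growing out edited cells, so each line has a history of its own before the experiment starts. Comparisons at 0 h show what that starting point looks like in RNA.

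The parental libraries held 3770140 to 11696867 counts and the LB2 libraries 1894447 to 16508928. A count of 0 is compatible with up to 3 counts, which in the library least deep of the 8, replicate 1 of LB2, is 1.58 CPM (counts scaled to a common library size), and in the deepest 0.182. Such limits cover counting error only. That same library stood apart from its group: its log values correlated with those of replicates 2 to 4 at 0.846 to 0.848, while these correlated with each other at 0.978 to 0.988, and its highest correlation was with replicate 1 of LAC at 0 h (0.943). Across genes its values rose with GC content (Spearman's rho 0.618), and those of replicates 2 to 4 fell (-0.364 to -0.217). In the parental libraries rho ran from -0.46 to 0.475. Replicate 1 of LB2 carried the line's own marks described below, among them no ZNF714 count, so its label was kept. Where leaving it out ends a call or a run, the value without it is given beside the result. Leaving it out gave the fitted line difference a GC trend, with a rho of -0.31 over 11051 genes. That rho was -0.02 with all libraries and -0.03 with a GC and length trend removed. Counts without replicate 1 are therefore not free of GC content, and the part of depth and GC content in the differences was not tested. Epithelial markers (15 genes, among them KRT8, CDH1 and EPCAM) summed to 8687 to 9664 CPM in the parental libraries and 7587 to 12715 in LB2. Mesenchymal markers summed to 37.3 to 47.0 and 25.5 to 41.3 CPM, with TWIST1 and COL1A2 at 0 in all 8 libraries, and markers of blood, vessel, liver, nerve, muscle and pigment cells to 18.8 to 24.2 and 13.4 to 18.8 CPM, with HBB, MYH7 and TYR at 0.

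Some of the largest differences were in genes at or near 0 in one of the lines, and the reference sequence at the RefSeq start of 3 of them is printed first. ZNF714 encodes a zinc finger protein of the KRAB family, CFTR encodes the epithelial chloride channel, and LINC02408 is a long intergenic noncoding RNA. ZNF714 and CFTR were lower in LB2 and LINC02408 was higher. The windows run from 250 bases before to 50 after the RefSeq start (GRCh38.p14, all on the plus strand), 5′ to 3′, with the dinucleotide CG in capitals, the site at which vertebrate DNA can be methylated. Positions are chr19:21081953-21082252 for ZNF714, chr7:117479775-117480074 for CFTR and chr12:67519832-67520131 for LINC02408. The windows of CFTR and LINC02408 lie inside the spans over which reads were counted (chr7:117287120-117715971 and chr12:67443105-67590771), not at their first base, since those spans begin upstream of the RefSeq start.
ZNF714: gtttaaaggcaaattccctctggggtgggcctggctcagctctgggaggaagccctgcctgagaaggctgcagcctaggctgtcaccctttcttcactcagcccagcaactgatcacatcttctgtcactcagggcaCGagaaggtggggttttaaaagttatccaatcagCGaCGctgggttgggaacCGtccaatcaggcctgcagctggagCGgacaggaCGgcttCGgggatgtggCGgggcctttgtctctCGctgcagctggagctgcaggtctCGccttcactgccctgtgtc
CFTR: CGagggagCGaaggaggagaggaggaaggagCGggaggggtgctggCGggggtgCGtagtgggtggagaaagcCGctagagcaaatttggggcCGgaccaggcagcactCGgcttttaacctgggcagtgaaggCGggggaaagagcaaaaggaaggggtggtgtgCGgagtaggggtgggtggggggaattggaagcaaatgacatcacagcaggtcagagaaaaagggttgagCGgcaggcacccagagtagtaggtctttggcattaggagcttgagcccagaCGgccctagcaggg
LINC02408: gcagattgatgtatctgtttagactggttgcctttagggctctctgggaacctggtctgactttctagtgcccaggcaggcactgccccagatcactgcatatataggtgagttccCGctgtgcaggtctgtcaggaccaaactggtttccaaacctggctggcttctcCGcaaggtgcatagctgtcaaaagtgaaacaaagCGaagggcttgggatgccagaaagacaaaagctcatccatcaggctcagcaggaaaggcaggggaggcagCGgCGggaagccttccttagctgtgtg
The motif searched was CG, which reads the same on both strands. The ZNF714 window held 10, the CFTR window 12 and the LINC02408 window 5, against a median of 14 over the 35116 windows of the table, of which 96.0% held at least 1. At least as many as in ZNF714 were present in 56.4% of windows, as in CFTR in 53.1% and as in LINC02408 in 70.4%. These counts describe the reference sequence, and neither methylation nor the sequence of the lines was analysed here.

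The tagged gene itself was lower in LB2. LMNB2 (ENSG00000176619.13, chr19:2427638-2456959, minus strand) stood at 292, 297, 307 and 235 CPM in the 4 parental libraries and at 261, 109, 99.9 and 100.4 in the 4 LB2 libraries. Replicates 2 to 4 of LB2 lay below every parental library, and replicate 1 lay among them. The means were 283 ± 32.5 and 143 ± 79.2 (SD, n = 4), and the log2 difference was -1.02 ± 0.21 (its standard error, as after every ± beside a log2 difference; adjusted p 0.000857 by edgeR). Without replicate 1 it was -1.43. With the 8 libraries fitted alone the difference was -0.99 and the adjusted p 0.0725, so that call rests on the spread being estimated over all 46 libraries. At 16 h and 96 h, in other wells, the log2 difference between the lines was -1.37 and -1.26 (adjusted p 8.24e-06 and 0.000212). Against the mean of the other tagged lines at 0 h it was -1.48. At the same time LAC stood at 0.81 and LB1 at 0.10 on the log2 scale from the same parental libraries.

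The other lamins did not pass the test with all libraries, and both passed as lower in 2 alternatives. LMNA, which encodes lamins A and C, stood at 794, 615, 862 and 680 CPM in the parent and at 1547, 512, 494 and 485 in LB2. The fitted log2 difference of 0.03 ± 0.26 (adjusted p 0.965) averages a high replicate 1 with 3 replicates below the parental range, and was -0.54 without replicate 1 (adjusted p 0.0951). LMNB1, the other B-type lamin, stood at 135 to 156 CPM in the parent and 105 to 225 in LB2 (log2 difference -0.09 ± 0.15, adjusted p 0.808). Without libraries under 5000000 counts LMNA stood at -0.58 and LMNB1 at -0.38 (adjusted p 0.0461 and 0.0453), and with voom and quality weights at -0.50 and -0.37 (adjusted p 0.0282 and 0.0141). The plot of lamin levels shows these libraries with those of the other tagged lines.

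**Figure D1:**
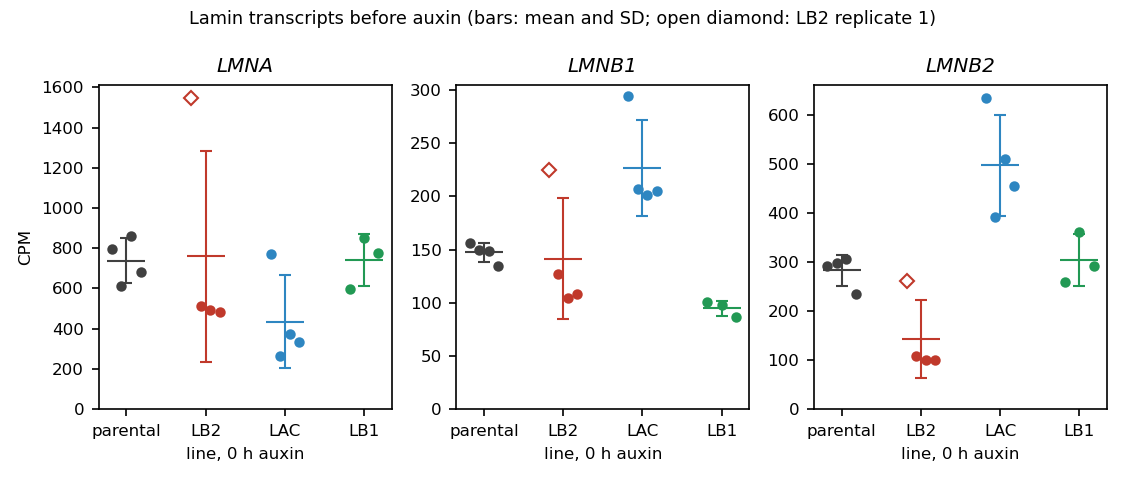
CPM (linear axis from 0) of LMNA, LMNB1 and LMNB2 in each 0 h library of the 4 lines, with mean and SD; the open diamond is LB2 replicate 1. LMNB2 sits near 100 CPM in LB2 replicates 2 to 4 and between 235 and 307 in the parent, while replicate 1 of LB2 is high for all 3 genes.

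Over all genes, the 2 lines differed in 1763 of 21484 tested (8.21%), of which 840 were higher in LB2 (3.91%) and 923 lower (4.3%). A gene was called where the adjusted p of edgeR's quasi-likelihood test was under 0.05. Of the calls, 485 were at least 2-fold, 159 higher and 326 lower. The 4 LB2 libraries did not overlap the 4 parental ones in 1246 of the 1763 called genes (70.7%) and in 2241 of all genes tested (10.4%). Protein-coding genes made up most of the calls, 1556 of 13734 tested (11.3%), with 51 of 1247 intergenic noncoding RNAs (4.09%). The median log2 difference over all genes was -0.03. The share of calls that were higher was 47.6%, and it moved to 33.1% with library size as the only scaling and to 58.2% once a GC and length trend was removed, so the balance between higher and lower genes depends on the scaling. Without replicate 1 of LB2, 2426 genes were called, and 467 with the 8 libraries fitted alone.

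Among the genes higher in LB2 with a like sign at 16 and 96 h, the one with the largest difference was a noncoding RNA. LINC02408 (ENSG00000203585.4, chr12:67443105-67590771, plus strand) stood at 0.122, 0, 0 and 0.483 CPM in the parent and at 9.42, 10.8, 16.9 and 12.2 in LB2. It had 3 counts over the 4 parental libraries and 423 over the LB2 libraries, a ratio of 125 (exact 95% interval 42.3 to 607, counting error only). No library of LAC or LB1 at 0 h exceeded 0.377 CPM, and the LB2 libraries at 16 and 96 h held 10.7 to 17.4. It was above 9 CPM in all 11 LB2 libraries of the series and under 0.5 CPM in every parental one. A second noncoding gene, LINC02442, overlaps it on the other strand.

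CACNB4, a regulatory subunit of voltage-gated calcium channels, was the most abundant of these genes. It stood at 5.73, 6.85, 5.38 and 2.66 CPM in the parent and at 25.5, 42.9, 47.1 and 50.4 in LB2, a log2 difference of 2.96 ± 0.22 (adjusted p 2.02e-14). The groups did not overlap, and LAC and LB1 differed from the parent by -0.04 and -0.58. NPPB, which encodes the precursor of the B-type natriuretic peptide, stood at 0 to 0.366 CPM in the parent and at 5.54, 1.86, 2.67 and 3.06 in LB2 (log2 difference 4.43 ± 0.79, adjusted p 0.000116). Its difference was 6.05 at 16 h and 0.15 at 96 h, where no library of either line exceeded 0.284 CPM. ARSL, an arylsulfatase gene of the X chromosome, rose by 3.22 ± 0.68, BEND7, which encodes a BEN domain protein, by 3.05 ± 0.42, and TNFRSF9, the lymphocyte costimulatory receptor CD137, by 2.83 ± 0.52 (adjusted p 0.00126, 7.09e-07 and 0.00015). TESC, which encodes the calcium-binding protein tescalcin, stood at 0.538 to 2.17 CPM in the parent and at 6.53 to 12.8 in LB2. PLB1, a phospholipase gene, stood at 0.359 to 0.487 and 1.86 to 3.40 CPM.

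For 3 further genes the difference was tied more closely to single libraries. RTN4RL2, a Nogo receptor relative, and FAM131C stood at 12.8 and 12.2 CPM in replicate 1 of LB2 and at 2.04 to 3.77 and 1.27 to 3.52 in the other 3, and without replicate 1 their log2 differences of 2.72 and 2.51 became 2.16 and 1.78, still called. ITGAX, an integrin subunit of myeloid cells, ran from 0 to 4.44 CPM in LB2 and overlapped the parental range, and its adjusted p of 0.0276 became 0.0576 without replicate 1. In contrast MYOM2, which encodes a muscle M-band protein, stood at 1.84 to 2.29 CPM in LB2 and up to 0.487 in the parent. Its difference of 2.95 had the same sign in the other tagged lines (LAC 1.31, LB1 2.26).

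Several genes lower in LB2 had few or no counts there. ZNF714 (ENSG00000160352.16, chr19:21082159-21125270, plus strand) stood at 52.4, 49.3, 47.7 and 40.4 CPM in the parent and had no count in any of the 4 LB2 libraries. Taking 3 counts per library as the most that 0 allows, it was at least 65.7-fold higher in the parent (47.4 ± 5.11 CPM, SD, n = 4). In LAC it stood at 40.0 CPM on average and in LB1 at 53.2. In LB2 it held 0 to 4.35 CPM at 16 h, the highest value coming from a library of 479446 counts, and 0 to 0.32 at 96 h. ZNF430, a zinc finger gene close by on chromosome 19 (chr19:21020634-21060050), stood at 3.77 to 5.24 CPM in the parent and 0 to 1.11 in LB2, but it was lower still in the other tagged lines (LAC -8.96, LB1 -5.59 on the log2 scale from the same parental libraries).

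BCL11A, a zinc finger repressor known from blood cells, fell from 15.1 to 18.8 CPM in the parent to 0, 0.989, 0.368 and 0 in LB2, a log2 difference of -4.78 ± 0.26 (adjusted p 1.86e-19). CFTR and its neighbour CTTNBP2, a cortactin-binding protein gene, fell together. CFTR stood at 2.07, 2.23, 3.77 and 4.35 CPM in the parent and at 0, 0.309, 0 and 0 in LB2 (log2 difference -4.20 ± 0.57, adjusted p 5.85e-07). CTTNBP2 stood at 2.44, 2.56, 3.77 and 5.56 CPM in the parent and at 0, 0.0618, 0 and 0.764 in LB2 (-4.64 ± 0.59, adjusted p 1.31e-07). Their annotated spans overlap on opposite strands, and how the counting treated strand is not given in the sources used here, so reads in the overlap could belong to either. In LB1 both stood above the parent by 1.73 and 1.89 on the log2 scale, and in LAC below it by values of -0.92 and -0.73.

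CHRM3, the M3 muscarinic acetylcholine receptor, fell from 3.59 to 7.26 CPM to 0.186 to 1.11 (log2 difference -3.85 ± 0.40). RINL, a Ras and Rab interactor-like gene, stood at 4.13 to 7.92 CPM in the parent and at 0 to 0.495 in LB2. PLA2G4A, the cytosolic phospholipase A2 that frees arachidonic acid, fell from 3.53 to 4.84 CPM to 0 to 1.01 (-3.46 ± 0.53). SLAMF6, an immune cell receptor gene, stood at 1.46 to 2.69 and 0 to 0.309 CPM. The groups did not overlap for any of these 4 genes, as was so for 70.7% of all called genes. Each was called at both 16 and 96 h, with the like sign that the choice of genes required.

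CGAS, the sensor of cytosolic DNA, stood at 2.56 to 4.66 CPM in the parent and at 2.22, 0, 0.184 and 0.51 in LB2 (-3.34 ± 0.78, adjusted p 0.00348). It too was lower in the other tagged lines, by values of -2.70 in LAC and -5.62 in LB1, and so was the pseudogene CRYZL2P (-3.27 in LB2, -2.48 and -7.74 in the others). DEGS2, a sphingolipid hydroxylase gene, had 3 counts in replicate 1 of LB2 and none in replicates 2 to 4, against 0.731 to 4.35 CPM in the parent. Its adjusted p was 0.0123, and it was not called at 96 h.

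**Figure D2:**
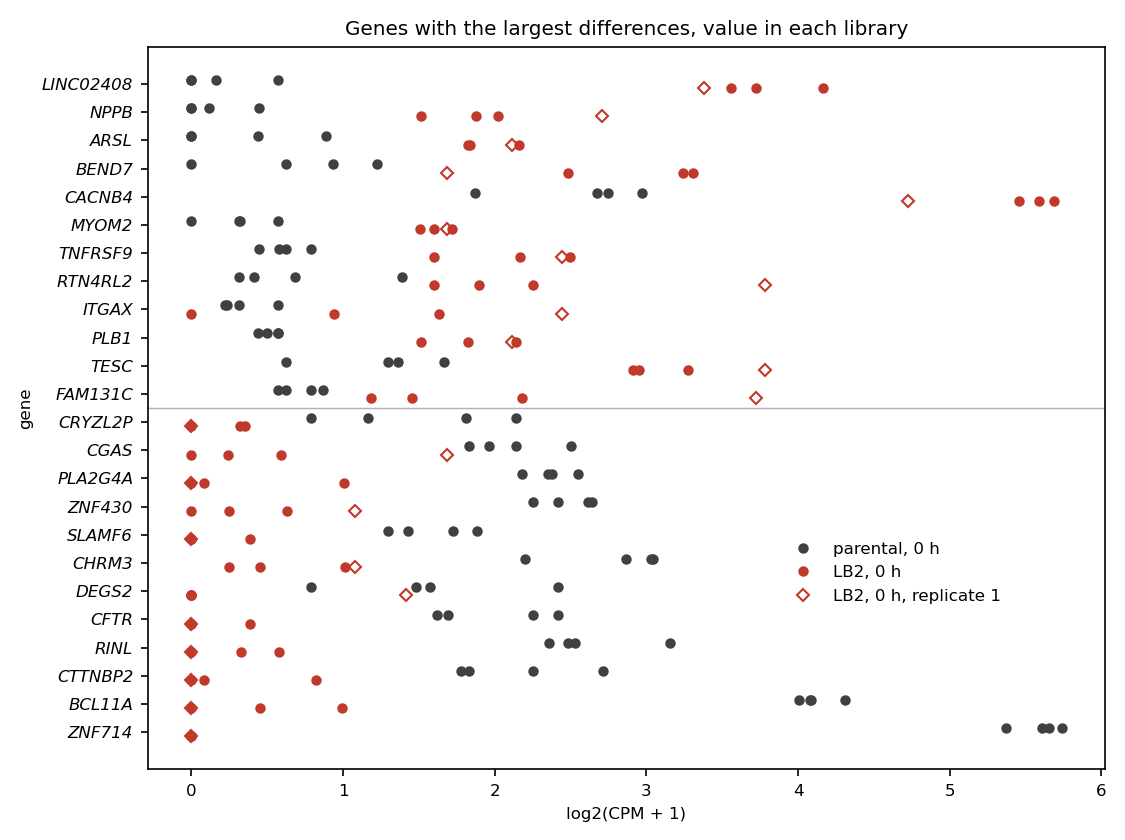
log2(CPM + 1) in each of the 8 libraries for the 12 genes with the largest higher and the 12 with the largest lower difference, in grey for parental and red for LB2, with LB2 replicate 1 as an open diamond. ZNF714 is at 0 in all 4 LB2 libraries, and ITGAX and DEGS2 are the genes whose groups overlap.

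How far these differences set LB2 apart from tagged lines in general was asked by comparing LB2 with the mean of LAC and LB1 at 0 h, in which 2503 genes were called (11.7%). Of the 1403 genes that met the rule for large differences (called at 0 h, at least 1 CPM on average over the 8 libraries, 1 sign at all 3 times), 845 were also called in the same direction against the other tagged lines, 379 higher and 466 lower. LB2 libraries enter both comparisons, so the second is not independent of the first. Higher in both with the largest differences were LINC02408, NPPB, ARSL, BEND7, CACNB4 and TNFRSF9, and lower in both were ZNF714, BCL11A, CTTNBP2, RINL, CFTR and CHRM3. RTN4RL2, MYOM2, DEGS2, CGAS and CRYZL2P were not called against the other lines, and ZNF430 was called in the opposite direction (3.59).

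The line difference was then read in libraries that the 0 h comparison did not use. At 16 h, 2141 genes differed between LB2 and the parent in auxin (9.97%), and at 96 h 1533 (7.14%). Of the 1763 genes called at 0 h, 987 were called in the same direction at 16 h (56.0% of the 0 h calls and 46.1% of the 16 h calls) and 559 at 96 h (31.7% and 36.5%). By sign alone, 96.5% of the 0 h calls kept their direction at 16 h, against 67.2% of all genes, and 86.6% at 96 h, against 58.2%. Across the 8701 genes with a mean log2(CPM + 1) above 4, the 0 h difference correlated with that at 16 h at r = 0.78 and with that at 96 h at r = 0.60; genes are not independent replicates, and the tagged protein is marked for degradation at the later times. In all, 493 genes were called in 1 direction at all 3 times, 174 higher and 319 lower.

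**Figure D3:**
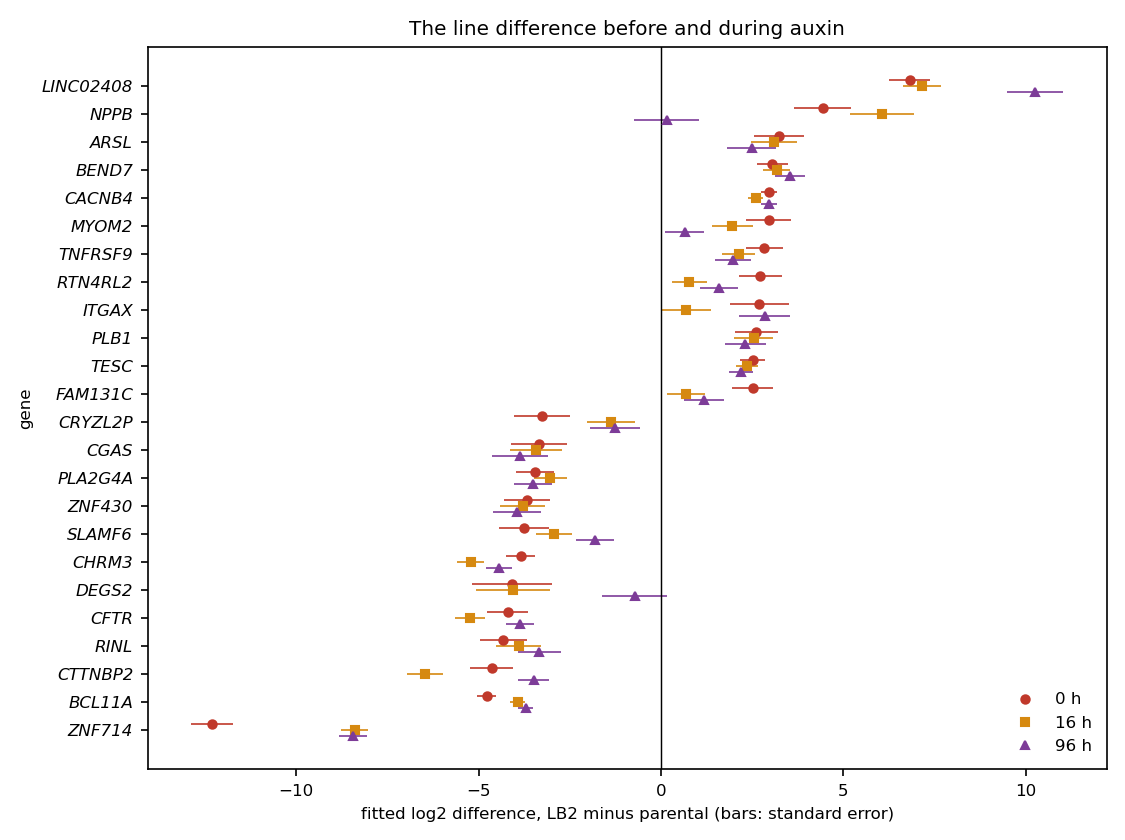
Fitted log2 difference of LB2 minus parental with its standard error at 0, 16 and 96 h for the same 24 genes. Each time comes from separate libraries, but the genes were chosen to have a like sign at 0, 16 and 96 h. Their shared direction is therefore set by that choice and is not a test of it. CACNB4 (2.96, 2.60 and 2.95) changes little, while NPPB, MYOM2 and DEGS2 lie nearer 0 at 96 h; the fitted value of ZNF714 depends on the prior count, since it has no count at 0 h.

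Genes of the nuclear envelope were called in both directions, to be read against 8.21% of all genes called. In the list of lamins and lamin-processing enzymes, 1 of 8 tested genes was higher and 1 lower (LMNB2): ZMPSTE24, the protease that matures prelamin A, stood at 169 ± 8.51 CPM in the parent and 265 ± 66.2 in LB2 (SD, n = 4; log2 difference 0.66, adjusted p 0.00869). Its 4 LB2 libraries lay above the parental ones at 0 h, and at 96 h the difference was -0.04. Among 19 inner nuclear membrane proteins, SUN proteins and nesprins, 2 were higher and 3 lower (median 0.02). The nesprin genes SYNE3 and SYNE2, whose products link the nucleus to the cytoskeleton, fell by 1.18 and 0.76. TMEM201 and BANF1, which encodes the barrier protein that binds DNA to the envelope, rose by 0.73 and 0.49, and neither was called without replicate 1 of LB2 (adjusted p 0.0636 and 0.186).

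Nuclear pore genes gave 2 higher and 1 lower of 31, with a median of 0.15, against 3.91% higher and 4.3% lower among all genes. NUP210, a membrane pore protein, stood at 361, 424, 412 and 363 CPM in the parent and at 271, 219, 180 and 193 in LB2 (-0.86 ± 0.17, adjusted p 0.000319), with no overlap and the same sign at 16 h (-1.30) and 96 h (-0.86). NUP88 and SEC13 rose by 0.58 and 0.36, and SEC13 was not called without replicate 1 of LB2 (adjusted p 0.0823) and lost its call in 9 of 17 alternatives in all. Once the GC and length trend was removed, 12 pore genes were higher, so that count depends on the correction. Of 20 heterochromatin genes none was higher and 2 were lower: CBX5, which encodes HP1 alpha, fell from 507 to 794 CPM to 294 to 373 (-0.88 ± 0.15, adjusted p 7.68e-05), and DNMT3A, a DNA methyltransferase, by 0.54. The difference of CBX5 was -0.77 at 16 h and -0.86 at 96 h.

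In the integrin list, which does not hold the ITGAX gene described above, the called members were lower. Of 12 integrin subunits tested, 5 were lower, none was higher and the fitted difference was below 0 in all 12 (median -0.37, against -0.03 for all genes tested and 4.3% of these called lower). The count was also 5 without replicate 1 of LB2. ITGB6, the beta subunit of an epithelial integrin that activates TGF-beta, stood at 7.68, 8.58, 8.07 and 5.07 CPM in the parent and at 3.88, 4.27, 1.56 and 3.57 in LB2 (-1.22 ± 0.29, adjusted p 0.0044). ITGB4, the hemidesmosome subunit, stood at 458, 496, 543 and 490 CPM and at 420, 254, 232 and 236 (-0.81 ± 0.19, adjusted p 0.00317). ITGA1, ITGB8 and ITGA3 fell by 0.87, 0.78 and 0.55. None of the 4 integrin genes with the largest differences overlapped between the groups, as was so for 70.7% of all called genes. At 96 h the differences of ITGB6, ITGA1, ITGB4 and ITGB8 were -0.94, -0.71, -0.77 and -0.94, each called.

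Targets of mechanical and growth signalling held a few large single differences; of all genes 3.91% were called higher and 4.3% lower. ANKRD1, a YAP target, stood at 117, 96.1, 85.9 and 96.7 CPM in the parent and at 30.5, 33.4, 36.2 and 48.9 in LB2 (-1.41 ± 0.17, adjusted p 9.54e-08), 1 of 2 genes lower among 22 YAP targets with none higher. The other was CRIM1 (-0.46). LAC and LB1 stood below the parent in ANKRD1 as well, and against their mean LB2 was higher (0.54). Of 21 SRF and contractile actin genes, 1 was higher (ACTG1, a cytoplasmic actin, 0.37) and 2 lower. Without replicate 1 of LB2 none was higher and 4 were lower, with ACTG1 at 0.32 (adjusted p 0.0524). CALD1, which encodes caldesmon, fell from 24.9 to 28.3 CPM to 9.42 to 15.6, and FHL1, a LIM domain gene of the X chromosome, had no count in LB2 against 0.793 ± 0.388 CPM in the parent (SD, n = 4). Immediate early genes split, with 3 of 18 higher and 3 lower. ATF3 rose from 13.8 to 18.8 CPM to 32.1 to 38.3, and JUN rose by 0.97 (0.60 without replicate 1 of LB2, adjusted p 0.0861), while FOSB and EGR1 fell by 1.13 and 0.70. Of 16 MAPK feedback genes 3 were lower and none higher, SPRY2 by 0.58, DUSP6 by 0.56 and PHLDA1 by 0.50.

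Differentiation and stem cell genes of the gut also split. Among 14 absorptive and secretory genes, 2 were higher and 4 lower. CA2, carbonic anhydrase 2, rose from 19.2 ± 2.76 to 35.0 ± 5.74 CPM (SD, n = 4; log2 difference 0.90), and MUC5AC, a secreted mucin, fell from 133 ± 6.10 to 77.4 ± 46.1 (-0.86). CEACAM6 and REG4 were called from few counts: CEACAM6 had 1 count over the parental libraries and a mean of 0.565 CPM in LB2, and REG4 had 1 count over the LB2 libraries and a mean of 0.529 CPM in the parent. Of 16 stem cell and WNT target genes, MYC rose by 0.57 and EPHB3 and LEF1 fell by 0.55 and 0.43. Without replicate 1 of LB2, 8 of them were lower, and LEF1 was not called (adjusted p 0.0849). With the GC and length trend removed, 3 were lower, so the count of 8 depends on the fit. Of 14 epithelial identity genes 1 was called, ELF3, an epithelial transcription factor, which rose from 38.0 ± 5.18 to 80.2 ± 14.7 CPM with no overlap (adjusted p 1.3e-07). No mesenchymal gene (8 tested) or marker of another cell type (3 tested) was called.

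Some immune and inflammatory genes were higher. Of 13 antigen presentation genes 4 were higher and none lower, with a median of 0.36 (3.91% of all genes were called higher). Once the GC and length trend was removed 7 were higher, with library size as the only scaling 3, and without replicate 1 of LB2 4 were higher and 1 lower. HLA-B, a class I heavy chain, stood at 7.80, 2.15, 8.25 and 12.6 CPM in the parent and at 24.4, 19.0, 19.2 and 18.3 in LB2 (1.46 ± 0.34, adjusted p 0.00321), and its difference was 2.05 at 16 h and 2.16 at 96 h. NLRC5, the class I transactivator, rose by 0.81, TAP1, a peptide transporter, by 0.72 and B2M, the class I light chain, by 0.56. Reads of near-identical HLA genes can be split between them. TAP1 was not called without replicate 1 of LB2 (adjusted p 0.066). With the 8 libraries fitted alone none of HLA-B, NLRC5, TAP1 and B2M was called (adjusted p by edgeR 0.0544 for HLA-B and 0.0570 for NLRC5). B2M lost its call in 7 of 17 alternatives in all. Of 37 interferon-stimulated genes 2 were higher, TAP1 and PSMB8, and 2 lower, STAT2 and OAS3, with a median of 0.00. Of 18 chemokines and cytokines, 5 were higher and 1 lower. CXCL5, a neutrophil chemokine, stood at 126 to 156 CPM in the parent and at 327 to 363 in LB2 (1.30 ± 0.14, adjusted p 2.23e-09), and IL32 at 1.43 to 3.38 and 4.84 to 8.32. CXCL8 and CXCL16 rose by 1.24 and 0.64, and CXCL16 stood at 107.6 CPM in replicate 1 of LB2 against 40.5 to 45.6 in the others and was not called without it (adjusted p 0.252).

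Lipid synthesis genes were more often lower than higher where called. Of 30 cholesterol and fatty acid synthesis genes, 6 were lower and 1 higher (median -0.22, against -0.03 for all genes, of which 4.3% were called lower and 3.91% higher), and without replicate 1 of LB2 9 were lower. TM7SF2, a sterol reductase, fell by 0.92 and SCD, the stearoyl-CoA desaturase, from 950 to 1221 CPM to 525 to 734 (-0.81 ± 0.15, adjusted p 0.00014). STARD4, a sterol carrier, fell by 0.69, and ELOVL6, a fatty acid elongase, rose by 0.68. In LAC, SCD stood at -1.48 from the same parental libraries. NRF2 targets gave 3 higher and 1 lower of 19: FTL, the ferritin light chain, ME1 and TXNRD1 rose by 0.87, 0.51 and 0.41, and ABCC3, a conjugate exporter, fell by 0.97. ATF4 targets gave 1 higher and 2 lower of 19 (ATF3, TRIB3 and ATF4 itself), hypoxia and glycolysis genes none higher and 2 lower of 22 (PFKFB4 and ENO2), and aryl hydrocarbon receptor targets 1 lower of 7 (ALDH3A1).

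Growth genes were called in both directions, to be read against 3.91% of all genes called higher and 4.3% lower. Of 24 mitotic genes 2 were higher, CCNA2 (cyclin A2) by 0.56 and CDC20 by 0.34, and of 32 DNA replication genes 3, PCNA by 0.74, POLE2 by 0.69 and MCM6 by 0.32. Without replicate 1 of LB2, 7 were higher in each list and 1 replication gene was lower. With library size as the only scaling, 1 was higher in each list and 1 replication gene was lower. With the GC and length trend removed, 7 mitotic and 4 replication genes were higher, and 1 replication gene was lower. CDC20, POLE2 and MCM6 lost their calls in 10, 7 and 11 of 17 alternatives. MSH6, a mismatch repair gene, was lower by 0.43, 1 of 8, and was not called without replicate 1 of LB2 (adjusted p 0.127) or with the GC and length trend removed. CDKN1A, the cell cycle inhibitor p21, stood at 91.5, 69.5, 74.3 and 78.5 CPM in the parent and at 48.8, 31.8, 24.5 and 26.2 in LB2 (-1.32 ± 0.18, adjusted p 1.12e-06), with no overlap. None of 13 mitochondrial genome transcripts (median 0.28) and none of 7 abundant nuclear RNAs (median -0.27) was called.

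**Figure D4:**
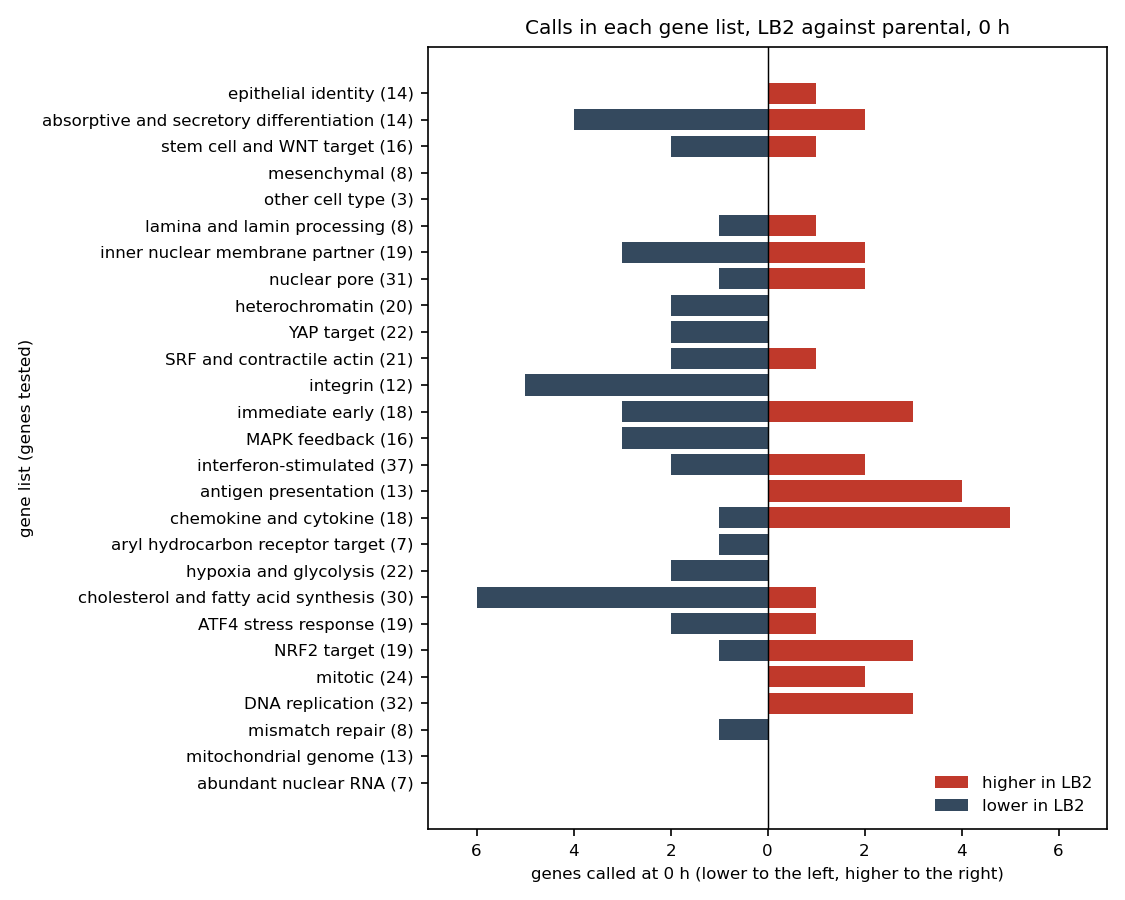
Number of genes called higher (right, red) and lower (left, dark) in LB2 at 0 h in each gene list reported, with the number of genes tested in brackets. Integrin (5 lower) and antigen presentation (4 higher) genes were called in 1 direction. So were several other lists, among them MAPK feedback (3 lower) and DNA replication (3 higher), and 4 lists have no call.

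Some of the differences lay together on the chromosomes. Over whole chromosomes, chromosome 20 had 90 of 532 tested genes called (16.9%), 62 higher and 28 lower, while the other autosomes had 4.84% to 10.5% and the X chromosome 64 of 558. Its median log2 difference was 0.12, against -0.07 to 0.03 elsewhere. Runs of at least 4 consecutive genes at 1 CPM or more that were called in 1 direction numbered 5 in the genome, and 3 of them lay on chromosome 20. Without replicate 1 of LB2 there were 7, of which 4 lay on chromosome 20.

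Nearest the end of the short arm, 8 genes in a row were lower in LB2 (chr20:270863-543835): C20orf96, ZCCHC3, NRSN2-AS1, SOX12, TRIB3, RBCK1, TBC1D20 and CSNK2A1, with log2 differences from -1.63 to -0.76 and a median of -1.01. CSNK2A1, the catalytic subunit of casein kinase 2, stood at 198 ± 24.7 CPM in the parent and 96.1 ± 15.2 in LB2 (SD, n = 4; -1.03 ± 0.14) with no overlap, and the difference was -1.02 at 16 h and -1.05 at 96 h. In SOX12, a SOX family transcription factor gene, the difference was -1.02, and in TRIB3, a stress-induced pseudokinase, -0.76. LAC and LB1 differed from the parent in CSNK2A1 by 0.18 and -0.06.

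Beyond these genes the sign changed. Of the 75 genes at 5 CPM or more from PSMF1 to KIZ (chr20:1113240-21246622), 72 were above 0, 47 were called higher and 1 lower, and the median log2 difference was 0.66 (middle 50% of genes 0.43 to 0.92). From XRN2 to the far end of the chromosome, 217 genes had a median of -0.02, with 9 called higher and 15 lower. These borders were set after the values were seen, so the 0 h values are a description. In separate libraries the 75 genes had a median of 0.75 at 16 h and 0.61 at 96 h, and the 6 genes from ZCCHC3 to CSNK2A1 at this level a median of -1.13 and -1.22, while the 217 genes stood at -0.07 and -0.12. LAC and LB1 at 0 h had medians of 0.04 and 0.01 over the 75 genes and 0.15 and 0.10 over the 6.

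The higher stretch was present in every LB2 library, the one that stands apart included, while in that library 3 of the 6 genes of the lower stretch (ZCCHC3, TRIB3 and RBCK1) lay within the parental range. Taking in each library the median of log2(CPM + 1) minus the parental 0 h mean, the 75 genes stood at 0.59 to 0.64 in the 4 LB2 libraries at 0 h, at 0.65 to 0.86 in the 4 at 16 h and at 0.54 to 0.71 in the 3 at 96 h. No parental library at any time exceeded 0.16, and no library of LAC or LB1 at 0 h exceeded 0.19. Over the 6 genes the LB2 libraries stood at -1.33 to -0.21, the value nearest 0 being that of replicate 1 at 0 h, and the parental ones at -0.05 to 0.26. Of the 1105 windows of 10 neighbouring genes in the genome, 10 had a median beyond 0.5 in size. Of these, 7 lay on chromosome 20 and the other 3 in the part of chromosome 6 that holds the histone genes. At 96 h the 3 windows on chromosome 6 had medians of -0.07, -0.06 and 0.25. LAC at 0 h had 41 windows above 0.5 and 3 below -0.5 from the same parental libraries, and LB1 had 9 and 4, none of them on chromosome 20. DNA copy number was not analysed here.

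**Figure D5:**
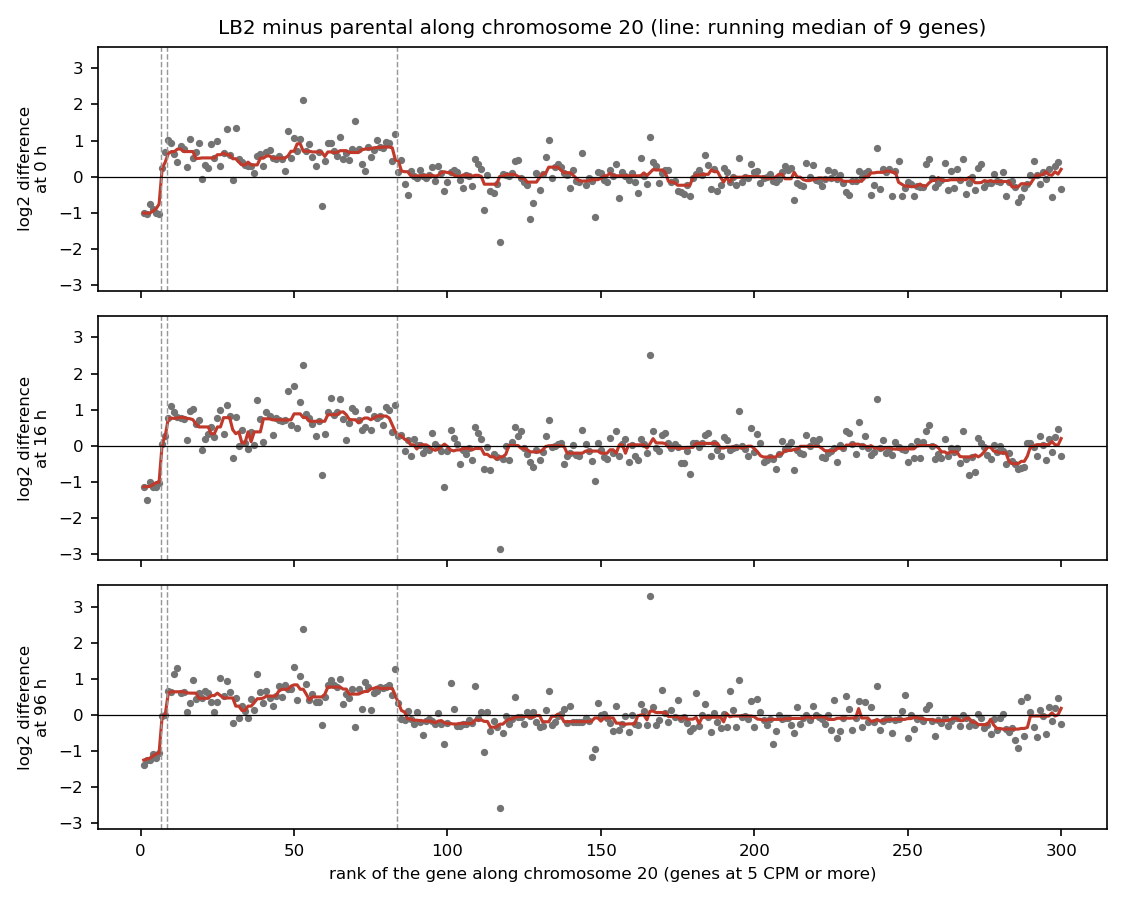
Log2 difference of LB2 minus parental at 0, 16 and 96 h for 300 genes at 5 CPM or more, in their order along chromosome 20, with a running median (red) and dashed lines at the borders of the stretches. The first 6 genes lie near -1, the stretch from PSMF1 to KIZ near 0.7 and the remaining genes near 0 at all 3 times.

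Some genes named above lie in these stretches. PCNA, the sliding clamp of DNA replication, is within the higher one and stood at 413, 378, 373 and 346 CPM in the parent and at 556, 775, 586 and 603 in LB2 (0.74 ± 0.11, adjusted p 4.07e-06), close to the median of its neighbours. It was the only member of the gene lists there, as TRIB3 was in the lower one. PLCB4, a phospholipase C gene, went further than its surroundings, from 9.67 ± 2.15 to 41.9 ± 12.6 CPM (SD, n = 4; 2.13 ± 0.22), and BMP2, a bone morphogenetic protein gene, rose by 1.06. The run from POLR3F to DTD1 (chr20:18466878-18766644) was not a run without replicate 1 of LB2, although SEC23B within it was called. Also in the stretch, SEC23B, a coat protein of secretory vesicles, rose by 0.75 and FERMT1, the adhesion protein kindlin 1, by 0.51.

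The other 2 runs lay on chromosomes 17 and X. On chromosome 17 (chr17:45393902-45584705) ARHGAP27, PLEKHM1, LRRC37A4P and 2 genes without a symbol were lower by 0.80 to 2.05. PLEKHM1, an adaptor of late endosomes, stood at 121 ± 6.13 and 62.2 ± 22.2 CPM (SD, n = 4; adjusted p 1.15e-06), with log2 differences of -1.24 and -1.19 at 16 and 96 h. ARHGAP27 stood at -0.89 and -0.91 at those times, both called. LRRC37A4P and the 2 genes without a symbol were not called at 96 h (-0.57, -0.45 and 0.12). Their spans overlap, so they are not separate places on the chromosome. The 2 genes without a symbol were also called lower in LAC at 0 h (-0.63 and -2.49). LRRC37 genes exist in near-identical copies, so their counts are uncertain. On the X chromosome (chrX:34627075-37732130) TMEM47, PRRG1, LANCL3 and XK were lower. TMEM47, a junction membrane protein gene, fell from 19.5 ± 1.86 to 2.30 ± 1.07 CPM (-2.87 ± 0.27), also -2.18 at 16 h and -2.16 at 96 h, while the other 3 were not called at those times. This run was lost without replicate 1 of LB2, where PRRG1 stood at -0.31 and XK at -0.38 (adjusted p 0.213 and 0.110).

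Last, genes were sought that were silent in one line. At 3 counts or fewer in each LB2 library and at least 1 CPM on average in the parent were 22 named genes, 11 of them protein-coding and 17 called. Besides ZNF714, ZNF141, another KRAB zinc finger gene, and LINC01811 had no count in LB2, against 1.53 ± 0.317 and 1.36 ± 1.08 CPM in the parent (SD, n = 4), at least 2.12-fold and 1.88-fold higher. ZNF141 was at 0 in LAC and LB1 as well, whereas LINC01811 stood at 0.13 CPM in LAC and at 2.02 in LB1. SSTR1, a somatostatin receptor gene, and MYCN, a MYC family transcription factor, stood at 1.42 and 1.14 CPM in the parent with 2 counts each over the LB2 libraries. In LAC they stood at 0.76 and 0.09 CPM and in LB1 at 1.71 and 2.05. In the other direction 26 named genes were silent in the parent, 14 of them protein-coding, and 8 were called, with LINC02408 and NPPB the most abundant of them. At these depths, a gene near 1 CPM that is listed at 0 cannot be told from one at a low level.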

How the data were processed

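RNA was measured by sequencing of rRNA-depleted total RNA from a stranded kit. The authors deposited raw read counts per gene for 46 libraries, made with featureCounts 1.6.4 per the file headers, after alignment with STAR 2.7.10a to GRCh38 per the submitters' processing notes. The strand and multimapping settings and the annotation release are not given in the sources used here.

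Of 62756 genes, 21484 passed edgeR's filterByExpr. A quasi-likelihood model (edgeR 4.0.16, R 4.3.3) with TMM scaling and 12 groups was fitted to all 46 libraries, with Benjamini-Hochberg adjusted p under 0.05 as the call, and standard errors taken from the fold change and F statistic. CPM values use TMM-scaled library sizes. LB2 was compared with the parent at 0, 16 and 96 h, and with the mean of LAC and LB1 at 0 h. Alternatives were other scalings, no filter, DESeq2 1.42.0, limma 3.58.1 (voom with quality weights), a GC and length correction, shallow libraries left out, and each library left out. The model was tested on simulated data.

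Genes named are the 3 lamins, the 12 largest log2 differences each way among called genes with a mean of at least 1 CPM and 1 sign at all 3 times, the 6 each way also called against the other tagged lines, and up to 4 members per gene list. Genes of chromosomal runs and of the silent class were named after their values were seen. The members and the 28 gene lists were chosen with earlier results of these data known; 1 of the lists is not reported here. Symbols were matched for 67.4% of genes and types from GENCODE 29 for 92.9%. One gene whose record was broken over 3 lines was left out. Deviations of same-numbered LB2 and parental libraries correlated at 0.20, 0.62, -0.24 and 0.05 at 0 h and at 0.17, 0.23, 0.14 and -0.15 at 16 h, so same-numbered libraries were not alike throughout there. Such deviations can also carry a library's GC trend (rho -0.364 and -0.46 in replicate 2 of LB2 and of the parent at 0 h). The check therefore cannot show that the libraries were not paired. At 96 h the 3 shared numbers correlated at 0.28, 0.47 and 0.14, so those libraries may be paired. The highest value among unmatched numbers there was 0.10 (LB2 replicate 1 with parental replicate 4). The 96 h results above do not use pairing. The closing section gives a fit with a replicate block, whose terms are shared by all 12 groups.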

Additional observations from a re-analysis of the deposited data

Results flagged for a closer look

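In 188 groups of 4 libraries (94 named genes, 2 lines at 0 h), 24 had 1 library far from the other 3 by Dixon's ratio. Chance gives about 1 in 20 groups for normally distributed values, a rate that does not hold for counts near 0. For CFTR, SLAMF6, REG4, CEACAM6 and DEGS2 the other 3 libraries were at 0. Any count in the remaining library then sets the flag, so those flags test nothing about the library. Replicate 1 of LB2 was the flagged library in 15 of the 24. It was the highest of its group for LMNA (1547 CPM), LMNB2 (261), FTL (1388), ITGB4 (420), TRIB3 (227), EGR1 (181), TMEM201 (154), JUN (144), CXCL16 (107.6), ENO2 (51.0), EPHB3 (47.7), HLA-B (24.4), RTN4RL2 (12.8) and DEGS2 (1.66), and the lowest for B2M (68.2).

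The other 9 were spread over 6 libraries. In LB2 these were CFTR and SLAMF6 in replicate 2 (0.309 CPM each, against 0 in the other 3), CALD1 in replicate 2 (15.6), PLA2G4A (1.01) and REG4 (0.0920) in replicate 3, and CTTNBP2 in replicate 4 (0.764). In the parent they were CEACAM6 in replicate 1 (0.122), EGR1 in replicate 3 (209) and ENO2 in replicate 4 (56.8).

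The line difference changed with time in auxin, by the interaction term of the same edgeR model, for 3 named genes. For ANKRD1 it was higher by 1.43 at 16 h and by 1.18 at 96 h than at 0 h: the parent fell from 85.9 to 117 CPM at 0 h to 12.7 to 14.7 at 16 h, and LB2 from 30.5 to 48.9 to 11.2 to 21.8. For ATF3 the change at 96 h was -0.83 and for CDKN1A 1.11. Both lines were in auxin at the later times.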

How the results depend on the processing

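The number of genes called at 0 h (1763) was 467 with the compared libraries alone, 2791 with the GC and length trend removed, 3195 with voom and quality weights, and 3181 without the first replicates of both LB2 and LAC, a setting chosen after seeing the data. It ran from 1243 to 2426 with 1 library left out. Against the other tagged lines (2503) these were 661 with the compared libraries alone, 4783 with voom and 3790 without both first replicates, and 1628 to 3696 with 1 library left out. At 16 h (2141) they were 3334 without shallow libraries and 5342 with voom, and 1318 to 2617 with 1 left out. At 96 h (1533) they were 2527 with the compared libraries alone, 2533 with the trend removed, 3146 without shallow libraries and 4147 with voom, and 667 to 1250 with 1 left out. The share of 96 h calls that were higher was 43.6%, and it became 63.5% when only library size was used, 55.6% under RLE and 54.3% in DESeq2. The fit with the replicate block called 1771 genes at 0 h, 2209 at 16 h and 1692 at 96 h. LMNB2 kept its direction throughout and lost its call with the compared libraries alone (-0.99, adjusted p 0.0725, in a range over alternatives from 3.69e-09 to 0.0725). LMNA changed sign with library size only (-0.063), the replicate block (-0.027), the trend removed (-0.0011), without shallow libraries (-0.58, adjusted p 0.0461) and with voom (-0.50, adjusted p 0.0282), and ran from -0.54 to 0.19 with 1 library left out. LMNB1 was called in the same 2 settings (-0.38 and -0.37, adjusted p 0.0453 and 0.0141), and ran from -0.35 to 0.035 with 1 left out. Of the 92 named genes that were called, 45 were called in every alternative and 47 lost the call in at least 1, 42 of them with the compared libraries alone. Without replicate 1 of LB2, 12 named genes lost the call or changed sign. LMNA, not called in the main fit, was among these 12 by its sign. The causes were not tested. Replicate 1 of LB2 (1894447 counts) limits what can be read near 1 CPM.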
